A study of Drosophila melanogaster with 3 samples.

Results

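Candidate regions that ranked directly below the reproducible peaks of a chromatin immunoprecipitation sequencing (ChIP-seq) experiment on CG4318-eGFP were examined in whole Drosophila melanogaster prepupae. The members were the rows at ranks 5057 to 10112 of the pooled dm6 candidate list, ordered by the deposited signal score, that did not overlap a reproducible peak by 1 bp. Of 5056 rows at these ranks, 388 (7.67%) overlapped a reproducible peak and were removed. The remaining 4668 regions were 15.6% of the 30000 pooled candidates and are called just-below regions. They were set against the 5056 reproducible peaks, and against the 9857 candidates at ranks 20001 to 30000 that overlapped no reproducible peak, called the bottom window.

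All 3 samples were biological replicates of 1 group, a transgenic line that stably expressed CG4318 with GFP fused to its C-terminus. Whole prepupae of pooled sex were used, and chromatin was sonicated and precipitated with an antibody against GFP. The label on age reads 48 days, which no prepupa reaches, so the stage label was used. Whole animals mix every tissue, and a region bound strongly in few cells cannot be told apart from a region bound weakly in many.

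Peak callers return a ranked list that runs from strong, narrow enrichment down to fluctuations of the background. Comparing replicates by the irreproducible discovery rate sets a point in that ranking below which ranks stop agreeing between replicates. Regions beneath that point can hold weak binding, binding in few cells and background together. The prepupa is the stage at which pulses of the steroid hormone ecdysone start to turn the larval body into the adult, through nuclear receptors and other transcription factors that bind promoters, introns and intergenic enhancers.

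The rank limit fell in a smooth decline of the signal score. The last reproducible peak, in an intron of Atat, had a score of 108.74, and the first just-below region, in an intron of MYPT-75D, had a score of 108.72. At the lower limit, the last just-below region, in an intron of SLO2, had a score of 58.367, and the next candidate, near CG15615, had a score of 58.362. Just-below regions had a median score of 72.9, against 193 for reproducible peaks and 34.8 for the bottom window. The members were chosen by this pooled score and by overlap, so these values are a description. Their deposited −log10 q-values ran from 2.58 at most to 0.629 at least. Nearly all just-below regions (99.96%) were 420 bp wide, and 339 of them (7.26%) overlapped another just-below region, in 168 clusters of at most 3, so that merging left 4497.

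Replicate 3 stood apart from the other 2. Of all 30000 pooled candidates, 66.6% were overlapped by a candidate of replicate 1, 66.8% by 1 of replicate 2 and 60.5% by 1 of replicate 3. Among reproducible peaks the shares were 99.6%, 99.8% and 83.6% in the same order of replicates. Mean listing and the differences within the replicates' own lists are therefore also given with each replicate left out. The pooled ranking rests on all 3 replicates, so results from it cannot be given without replicate 3.

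The sequences under the summits show what the base composition values below describe. Each is the 101 bases centred on a summit, on the plus strand of the Release 6 assembly from RefSeq, with every run of at least 6 A or T in capitals. The first 6 are among the 7 strongest just-below regions, named by the gene with the nearest protein-coding transcription start site (TSS).
MYPT-75D, chr3L:18626627-18626727: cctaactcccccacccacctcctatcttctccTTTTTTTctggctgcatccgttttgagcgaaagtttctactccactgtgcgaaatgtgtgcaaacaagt
CG46304, chr2L:18946318-18946418: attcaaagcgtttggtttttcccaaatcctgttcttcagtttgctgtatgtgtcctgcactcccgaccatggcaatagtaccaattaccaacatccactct
CG12075, chrX:8836699-8836799: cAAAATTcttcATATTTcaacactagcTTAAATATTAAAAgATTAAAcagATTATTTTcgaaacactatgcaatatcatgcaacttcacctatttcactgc
Prx1, chr3L:15192330-15192430: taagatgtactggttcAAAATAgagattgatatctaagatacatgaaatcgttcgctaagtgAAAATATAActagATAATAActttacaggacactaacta
InR, chr3R:21605054-21605154: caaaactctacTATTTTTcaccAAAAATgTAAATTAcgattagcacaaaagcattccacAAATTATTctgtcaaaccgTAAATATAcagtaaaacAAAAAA
CheA75a, chr3L:18240397-18240497: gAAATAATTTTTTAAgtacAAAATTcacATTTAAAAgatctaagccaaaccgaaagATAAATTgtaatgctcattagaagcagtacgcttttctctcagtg
Their GC contents were 47.5%, 43.6%, 27.7%, 28.7%, 26.7% and 29.7% in the order printed. The regions near CG12075, Prx1, InR and CheA75a held 39, 22, 42 and 35 bases in A/T runs. By contrast, the MYPT-75D region held 7 such bases and the CG46304 region held 0.

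Regions at ranks 10110 and 10111 show the other end of the rank range, and regions near the top of the bottom window show what lay far below it.
nAChRalpha1, rank 10110, chr3R:24425386-24425486: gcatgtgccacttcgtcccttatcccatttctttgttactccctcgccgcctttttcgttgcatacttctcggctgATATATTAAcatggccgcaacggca
CG31797, rank 10111, chr2L:19238878-19238978: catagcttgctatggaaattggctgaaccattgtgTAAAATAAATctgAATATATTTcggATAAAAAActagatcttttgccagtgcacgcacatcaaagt
Arl8, rank 20001, chr3R:8134156-8134256: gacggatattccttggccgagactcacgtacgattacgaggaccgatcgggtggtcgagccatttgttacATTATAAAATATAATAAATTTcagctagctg
htt, rank 20003, chr3R:28703646-28703746: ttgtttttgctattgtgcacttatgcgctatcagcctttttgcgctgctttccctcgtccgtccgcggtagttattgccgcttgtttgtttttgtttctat
Both kinds of sequence occur among just-below regions. GC content was 49.5% at the nAChRalpha1 summit and 34.7% at the CG31797 summit, against 43.6% at the Arl8 summit and 44.6% at the htt summit of the bottom window.

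On average, just-below summits were A/T-rich dips in G/C-richer surroundings, shallower than those of reproducible peaks and much deeper than those of the bottom window. Mean GC content in the 101 bp at the summit was 33.8% ± 8.49 (SD over 4668 regions) in just-below regions, 30.9% ± 7.12 in 5056 reproducible peaks and 39.3% ± 9.66 in 9857 regions of the bottom window. In windows centred 400 bp to each side it was 44.1%, 45.1% and 41.7% in the same order of sets. The summit was poorer in GC than its own flanks in 3828 of 4668 just-below regions (82.0%, 95% Wilson interval 80.9 to 83.1), against 91.7% of reproducible peaks and 56.6% of the bottom window. A/T runs covered a mean of 26.1 of the 101 bases in just-below regions, 29.3 in reproducible peaks and 19.6 in the bottom window.

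**Figure D1:**
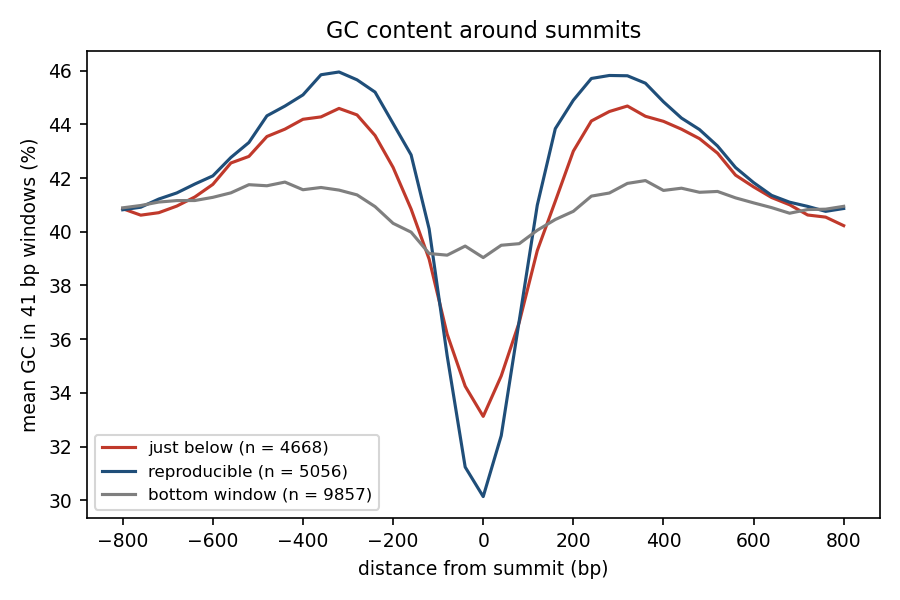
Mean GC content (%, in 41 bp windows) against distance from the summit (bp) for just-below regions, reproducible peaks and the bottom window. At the summit the curves stood at 33.1% for just-below regions, 30.1% for reproducible peaks and 39.0% for the bottom window, and at 800 bp to the right they stood at 40.2%, 40.9% and 40.9%.

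At promoter, intron and intergenic summits the summit was on average poorer in GC than its flanks. Just-below summits at promoters had a mean GC content of 34.3%, against 30.6% at reproducible promoter summits and 39.4% at promoter summits of the bottom window. In introns the means were 33.4% in just-below regions, 31.0% in reproducible peaks and 38.5% in the bottom window. Summit minus flank GC content in just-below regions was −8.53 points at promoters, −10.4 in introns and −11.5 in intergenic sequence. The 22 just-below summits in coding exons went the other way, at 6.50 points ± 12.4 (SD) above their flanks, and the 26 in 5′ UTRs stood at 0.89 points ± 13.4. Summit minus flank GC content was −11.9 points ± 11.1 (SD) at ranks 5057 to 7584, with a mean summit GC content of 32.6%. At ranks 7585 to 10112 it was −8.76 points ± 11.8, with a mean summit GC content of 34.9%. A summit GC content of at least 40% was found in 957 just-below regions (20.5%), against 9.67% of reproducible peaks and 45.7% of the bottom window. Of those 957 regions, 455 (47.5%) lay in introns, 294 (30.7%) in intergenic sequence, 136 (14.2%) at promoters and 13 (1.36%) in coding exons. Over all just-below regions the shares were 53.2%, 30.1%, 12.5% and 0.471% in the same order of classes.

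Short A/T words followed the same order. TATAAA, the letters of the TATA box, occurred on either strand of 22.3% of just-below summit windows, 25.2% of reproducible windows and 14.9% of bottom windows, against 8.90% of the flanks of just-below regions. Just-below windows exceeded bottom windows by 7.40 percentage points (95% Newcombe interval 6.02 to 8.79) and were below reproducible windows by a difference of −2.94 points (−4.63 to −1.25). TTTAAA was in 20.1% of just-below windows, 23.5% of reproducible windows and 12.9% of bottom windows, and ATATTA was in 19.9%, 23.7% and 11.8%. These words overlap each other and the A/T runs.

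The A tract AAAAAAAA went the other way between the upper sets: it was in 10.1% of just-below windows, 8.70% of reproducible windows and 7.91% of bottom windows, a difference of 1.41 points (0.248 to 2.58) from reproducible peaks. ATATATAT was in 3.49% of just-below windows, 3.36% of reproducible windows and 2.40% of bottom windows. G/C-containing words were rare at the summit. CACACACA was in 1.33% of just-below windows, 0.633% of reproducible windows and 2.47% of bottom windows, and CCGGCC in 0.771%, 0.138% and 1.88%. The E-box CACGTG was in 0.686%, 0.435% and 1.29%.

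Letters bound by 3 well-studied fly factors were each in under 1% of summit windows. GAGAGAG, read by GAGA factor, was in 0.921% of just-below windows, 0.791% of reproducible windows and 0.872% of bottom windows, all below the 2.06% of just-below flanks. TATCGATA, read by the DNA replication-related element factor Dref, was in 18 just-below windows (0.386%), 11 reproducible windows (0.218%) and 19 bottom windows (0.193%). CAGGTAG, read by the early embryonic activator Zelda, was in 0.364%, 0.297% and 0.325%. A pair of CGATA words spaced as in a known BEAF-32 site, with 6 bases between them, was in 0 just-below windows (upper limit of the 95% Wilson interval 0.0822%), 1 reproducible window and 3 bottom windows. A match describes letters and not a binding site.

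Just-below regions lay at promoters less often than reproducible peaks and more often than the bottom window. A summit within 500 bp of a protein-coding TSS was found in 585 of 4668 just-below regions (12.5%, 95% Wilson interval 11.6 to 13.5), 1204 of 5056 reproducible peaks (23.8%, 22.7 to 25.01) and 784 of 9857 bottom regions (7.95%, 7.44 to 8.50). Such windows cover 11.5% of the 6 arms, so the just-below share was close to the share of bases. The differences were −11.3 percentage points from reproducible peaks (95% Newcombe interval −12.8 to −9.77) and 4.58 points from the bottom window (3.51 to 5.69). All intervals cover counting error over regions only.

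Coding exons were nearly empty of just-below summits. They held 22 just-below summits (0.471%, 0.311 to 0.713), 3 reproducible summits (0.0593%) and 436 bottom summits (4.42%), while covering 13.3% of bases outside promoters. The difference from the bottom window was −3.95 points (−4.41 to −3.49). The 3′ UTRs held 62 just-below summits (1.33%), against 0.435% of reproducible summits and 3.78% of bottom summits, for 5.16% of bases. Introns held 53.2% of just-below summits, 52.7% of reproducible summits and 47.3% of bottom summits, and the difference of 0.48 points from reproducible peaks had an interval of −1.50 to 2.47. Intergenic sequence held 1407 just-below summits (30.1%), 20.7% of reproducible summits and 34.2% of bottom summits, 9.41 points (7.69 to 11.1) above reproducible peaks.

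**Figure D2:**
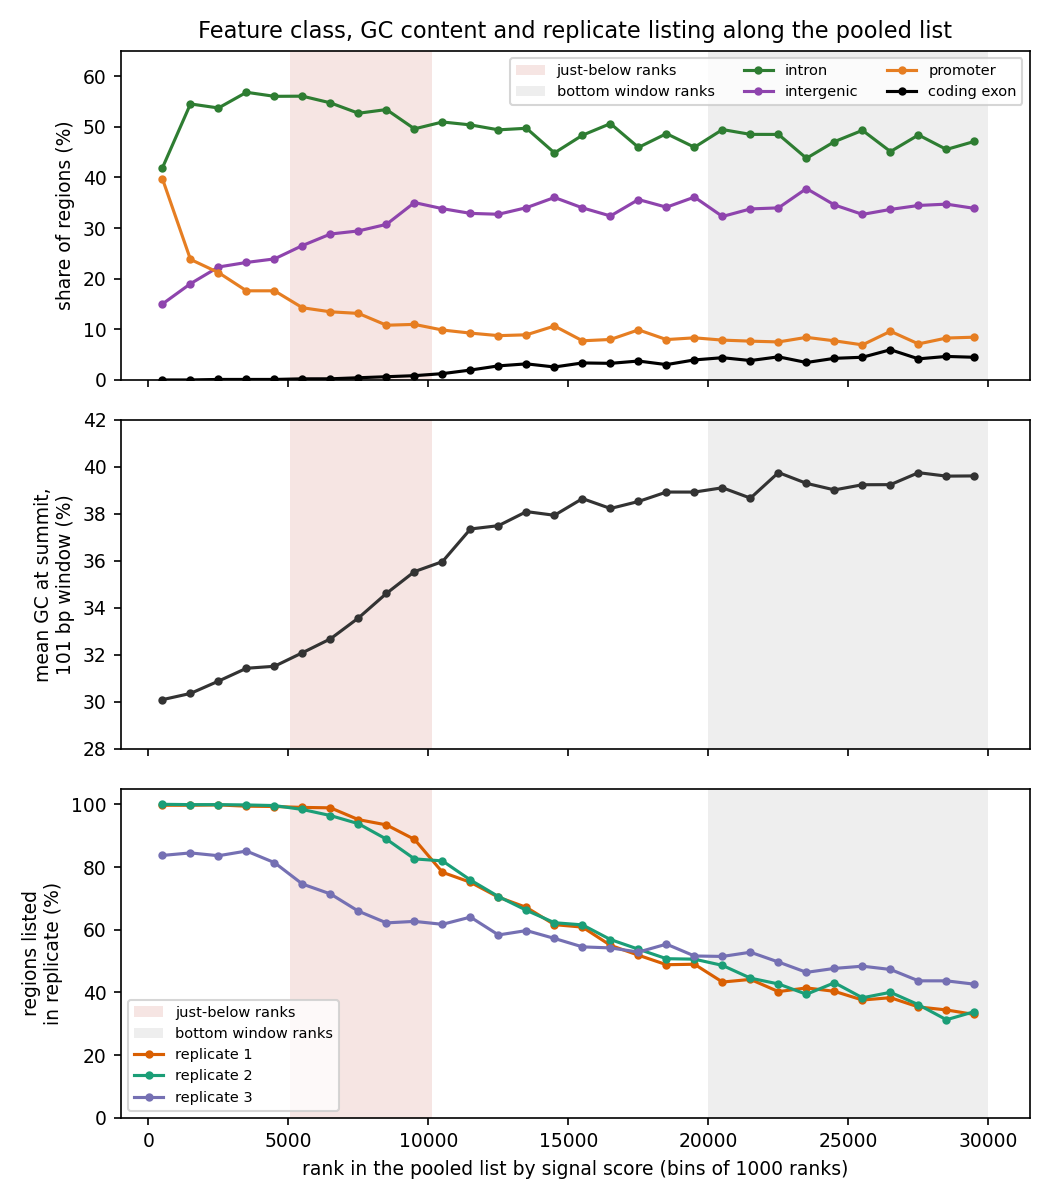
Share of regions by feature class (%), mean GC content at the summit (%) and share of regions listed in each replicate (%), each in bins of 1000 ranks of the pooled list, with candidates below rank 5056 that overlap a reproducible peak left out. In the shaded just-below ranks the promoter share moved between 14.3% and 10.8% and mean GC content between 32.1% and 35.5%. In the grey bottom window the promoter share moved between 6.92% and 9.61% and mean GC content between 38.7% and 39.8%.

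The change along the list was gradual. In bins of 1000 ranks the promoter share was 39.7% at ranks 1 to 1000, 17.6% at ranks 4001 to 5000, 14.3% at ranks 5001 to 6000 and 11.0% at ranks 9001 to 10000. The coding exon share was 0.100% at ranks 4001 to 5000, 0.219% at ranks 5001 to 6000 and 0.844% at ranks 9001 to 10000. From rank 20001 on, the coding exon share per bin was between 3.44% and 5.97%.

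At promoters, just-below summits kept a position upstream of the start. Of 585 just-below promoter summits, 445 (76.1%, 72.4 to 79.3) lay upstream of the nearest TSS, against 85.9% (83.8 to 87.7) of reproducible and 53.1% (49.6 to 56.5) of bottom promoter summits. The median position was −178 bp in just-below regions, −192 bp in reproducible peaks and −28 bp in the bottom window. Within 100 bp of the TSS lay 16.8%, 14.3% and 17.6% of promoter summits in the same order, and the differences of 2.47 (−1.03 to 6.20) and −0.85 points (−4.83 to 3.25) had intervals that include 0. Over all summits the median distance to a TSS was 4323 bp for just-below regions, 2343 bp for reproducible peaks and 5529 bp for the bottom window, and 25.7%, 17.1% and 31.9% lay beyond 10 kb.

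Chromosome arms were used in nearly the same shares as by reproducible peaks. The X chromosome held 889 just-below regions (19.0%), 20.2% of reproducible peaks and 16.3% of the bottom window, against 17.6% of bases. The X share exceeded that of the bottom window by 2.78 points (1.45 to 4.14) and differed from that of reproducible peaks by −1.13 points (−2.71 to 0.452). Arm 2L held 18.6%, 18.1% and 21.0% of the sets in that order. The small chromosome 4, which is largely heterochromatic, held 33 just-below regions (0.707%), 12 reproducible peaks (0.237%) and 101 bottom regions (1.02%). Summits inside annotated transposable elements numbered 37 in just-below regions (0.793%), 12 in reproducible peaks (0.237%) and 139 in the bottom window (1.41%). Summits within 500 bp of a tRNA gene start numbered 5, 7 and 11.

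Just-below regions lay closer to reproducible peaks than the bottom window did. The median distance from a summit to the nearest reproducible summit was 6193 bp (95% interval 5892 to 6626) for just-below regions and 19295 bp for the bottom window. A reproducible summit lay 3081 bp, at the median, from the nearest reproducible peak that did not overlap its own. Within 1 kb of a reproducible summit lay 490 just-below regions (10.5%) and 388 bottom regions (3.94%), within 5 kb 44.8% and 22.7%, and within 10 kb 60.7% and 35.4%. The difference at 10 kb was 25.3 points (23.6 to 27.0). The rule removes overlapping regions, so the shortest distances were barred in both sets and the closest just-below summit lay at 296 bp.

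**Figure D3:**
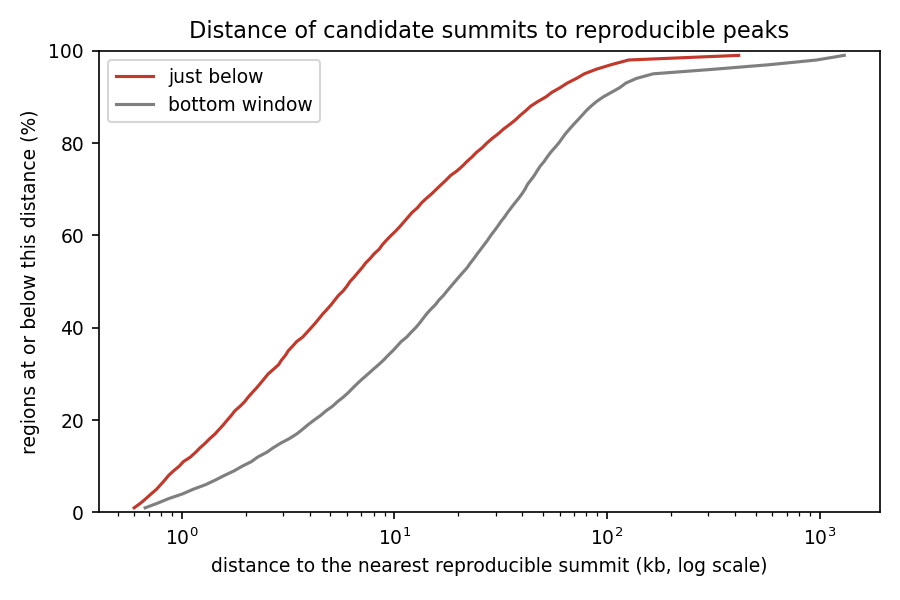
Cumulative share of regions (%) against distance to the nearest reproducible summit (kb, log scale) for just-below regions and the bottom window, drawn at each whole percentile. The just-below curve lies to the left of the bottom curve throughout, with medians of 6193 bp and 19295 bp.

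Near and far just-below regions differed in their share of promoters. The promoter share was 14.3% (11.5 to 17.7) for the 490 regions within 1 kb, 11.9% for 2344 regions at 1 to 10 kb, 11.1% for 1676 regions at 10 to 100 kb and 31.6% (24.9 to 39.3) for the 158 regions beyond 100 kb. The bottom window showed no such turn: its promoter share was 9.28% within 1 kb and 3.81% (2.77 to 5.23) for its 944 regions beyond 100 kb. Replicate 3 listed 63.1% of just-below regions within 1 kb and 84.2% of those beyond 100 kb, against 27.6% and 58.7% of bottom-window regions at the same distances.

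Some of the 50 just-below promoter regions beyond 100 kb stood at the centromeric ends of the arms, where genes are embedded in heterochromatin. Not every promoter region at these ends was isolated: those at l(3)80Fg and su(f) lay 1473 bp and 25630 bp from a reproducible summit. On arms 2L, 2R, 3L, 3R and X, 31 just-below regions lay on the centromere side of the last reproducible summit of the arm, 19 of them on 2L and 9 on 3L. This limit leaves out far promoter regions short of that summit, such as mRpS5 at chr3L:24537024-24537443, 1475244 bp from a reproducible summit. The share of the 50 near centromeres by a wider limit was not counted. Of these 31, 19 (61.3%, 43.8 to 76.3) were promoter regions, against 6 of 239 bottom regions in the same stretches (2.51%, 1.16 to 5.37). The 19 hold a pair of overlapping regions at RpL5 and another at CG40228, which the interval counts as separate regions. Replicates 1, 2 and 3 listed 29, 29 and 26 of the 31, the last being 83.9% (67.4 to 92.9). Over all just-below regions these replicates listed 94.6%, 91.7% and 67.0%, so replicates 1 and 2 were near their general share. Of the 239 bottom regions they listed 47, 64 and 147. These stretches were marked off after the values had been seen, so no test is given.

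Several of these promoters belong to genes known as residents of pericentric heterochromatin, and those described here were picked after their values had been seen. At light (lt), which encodes a vesicle trafficking protein, the summit lay 276 bp upstream of the TSS at chr2L:22924309-22924728, with ranks 12720, 11792 and 7820 in replicates 1 to 3. At concertina (cta), a G protein alpha subunit, it lay 69 bp upstream with ranks 9112, 28927 and 11698. At RpL5, a large-subunit ribosomal protein, it lay 60 bp upstream at chr2L:22536537-22536956, 603099 bp from a reproducible summit, with ranks 4841, 6688 and 12012. No replicate placed lt or cta among its 5056 strongest regions.

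On 3L the summit at RpL15, another ribosomal protein gene, lay 263 bp upstream with ranks 9377, 4956 and 23380. The helicase gene Dbp80 had a summit 167 bp upstream with ranks 4372, 10767 and 11877. verthandi (vtd), the cohesin subunit Rad21, had a summit 228 bp upstream with ranks 8681 and 14325 in replicates 1 and 2 and no candidate in replicate 3. At suppressor of forked, su(f), a gene for mRNA 3′ end formation on the X chromosome, the summit lay 270 bp downstream of the TSS with ranks 5933, 9548 and 6256.

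The 5 members farthest from a reproducible summit also lay toward the centromeres of 3R, 3L and 2R. The farthest, in an intron of the myosin gene Myo81F at chr3R:1310746-1311165, lay 2868325 bp away and was ranked 28300 in replicate 1 and 10061 in replicate 3, with no candidate in replicate 2. The promoter region of l(3)80Fj lay 2000159 bp away with ranks 10978, 6413 and 4145, and a second region in its intron lay 1997863 bp away with ranks 10941, 16129 and 8290. A region nearest to the TSS of the translation factor eIF4B lay 1846664 bp away with ranks 15941, 16474 and 2920. A promoter region of CG41378 lay 1501661 bp away, with ranks 17478 and 7712 and no candidate in replicate 3.

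Most just-below regions were listed in replicates 1 and 2, and fewer in replicate 3. A candidate of any rank overlapped 4416 (94.6%, 93.9 to 95.2) of them in replicate 1, 4281 (91.7%, 90.9 to 92.5) in replicate 2 and 3128 (67.0%, 65.6 to 68.3) in replicate 3. The mean was 84.4% ± 15.2 (SD, n = 3) in just-below regions, 94.4% ± 9.27 in reproducible peaks and 41.99% ± 4.69 in the bottom window, and without replicate 3 the just-below mean was 93.2%. The bottom window had the opposite order of replicates, with 38.8%, 39.8% and 47.4%. Since the pooled list was derived from the same 3 alignments, listing in a replicate is a description and not independent evidence.

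High rank in a replicate was rare. The 5056 strongest candidates of a replicate, its top list, overlapped 17.4%, 17.2% and 18.9% of all pooled candidates in replicates 1, 2 and 3. They overlapped 303 just-below regions (6.49%) in replicate 1, 270 (5.78%) in replicate 2 and 807 (17.3%) in replicate 3. The corresponding shares were 84.6%, 84.2% and 73.3% of reproducible peaks and 0.162%, 0.203% and 2.05% of the bottom window. Replicate 3 was thus the one that most often placed a just-below region in its top list, and also the one that most often did not list it at all. In these top lists the supporting candidate also touched a reproducible peak for 0, 1 and 2 just-below regions.

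**Figure D4:**
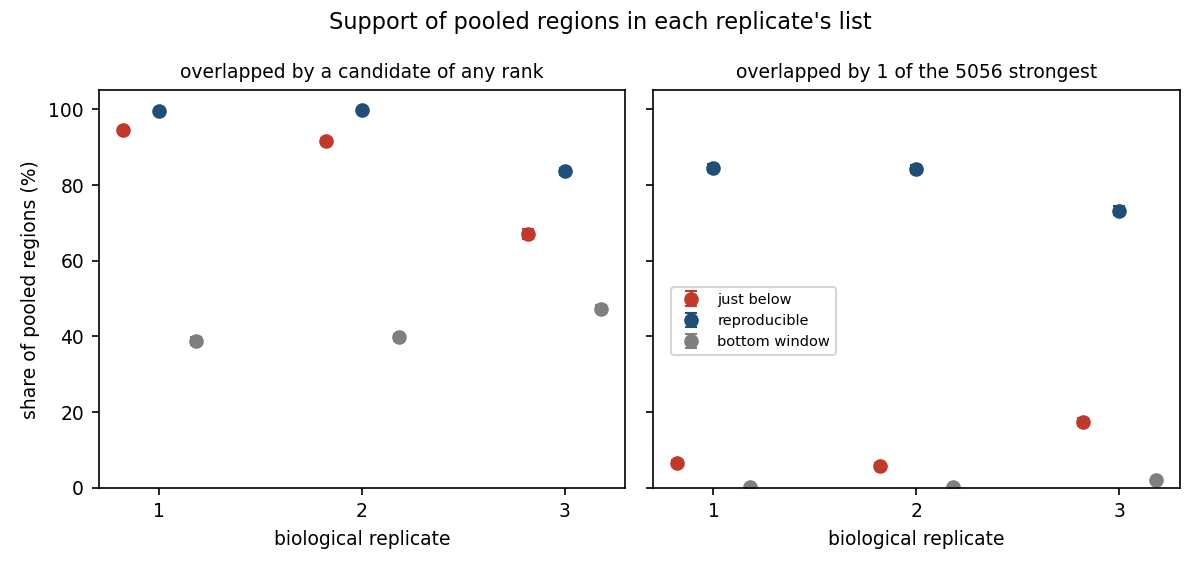
Share of pooled regions (%) overlapped in each biological replicate by a candidate of any rank (left) and by 1 of the 5056 strongest candidates (right), with 95% Wilson intervals, for just-below regions, reproducible peaks and the bottom window. In replicates 1 and 2, just-below regions lie near reproducible peaks in the left panel, at 94.6% and 91.7%. In the right panel they lie nearer to the bottom window, at 6.49% and 5.78% against its 0.162% and 0.203%. In replicate 3 they lie between the other sets, at 67.0% against 83.6% and 47.4% on the left. On the right they stand at 17.3% there, against 73.3% and 2.05%.

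Counted by region, 2634 just-below regions (56.4%) were listed in all 3 replicates, 1890 (40.5%) in 2, 143 in 1 and 1 in none. Reproducible peaks were listed in all 3 in 83.2% of cases and the bottom window in 4.69%. The most frequent gap was replicate 3: 1409 just-below regions (30.2%) lacked a candidate there alone, against 280 for replicate 2 and 201 for replicate 1. The region in none of the 3 lists was a promoter region of CG11537, ranked 9988 in the pooled list. In the top lists, 3356 just-below regions (71.9%) were in none, 1245 in 1, 66 in 2 and 1 in all 3. Of reproducible peaks 1.17% were in none and 56.6% in all 3, and 97.6% of the bottom window were in none. The rule keeps members out of the pooled top ranks, so these counts are a description.

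The just-below region in all 3 top lists lay in an intron of Pak3, a p21-activated kinase gene, at chr3R:16448808-16449097. It was ranked 2418, 4920 and 1042 in replicates 1 to 3 and 5793 in the pooled list, 507 bp from a reproducible summit with a score of 904. The supporting candidates did not reach that peak in any replicate. CheA75a, a chemosensory family gene, was nearest to a region at pooled rank 5064 with ranks 5223, 5046 and 4957, the most even of the 12 strongest.

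Some just-below regions were far stronger in replicates 1 and 2 than their pooled rank, and absent from replicate 3. They were picked out after their values had been seen. The promoter of Merlin (Mer), a tumour suppressor of the Hippo pathway, had a region at chrX:19693398-19693817 ranked 1037 and 1838 in replicates 1 and 2, with no candidate in replicate 3 and a pooled rank of 7099. Its summit, 108 bp upstream of the TSS and 25002 bp from a reproducible summit, had this sequence with A/T runs in capitals.
Mer, chrX:19693558-19693658: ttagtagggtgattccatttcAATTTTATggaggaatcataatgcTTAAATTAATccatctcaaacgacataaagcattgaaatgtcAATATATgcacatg
The actin regulator gene ciboulot (cib) had a promoter region ranked 1133 and 1427 in replicates 1 and 2, with no candidate in replicate 3 and a pooled rank of 7601. Its summit had a GC content of 54.5%, against 30.7% at the Mer summit. The splicing factor gene B52 had a promoter region ranked 3034 and 3178, with no candidate in replicate 3 and a pooled rank of 6655.

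The strongest regions with candidates in replicates 1 and 2 and none in replicate 3 included 3 at promoters. They were MYPT-75D, a myosin phosphatase targeting subunit, with ranks 4383 and 4172, CG46304 with ranks 5083 and 5439, the insulin receptor gene InR with ranks 6143 and 3332, the zinc finger gene mamo with ranks 4626 and 7383, and the F-box gene Fbxl7 with ranks 5031 and 5520. The regions at CG46304, mamo and Fbxl7 were promoter regions, and those at MYPT-75D and InR lay in introns.

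Absence from replicate 3 was more frequent at promoters than elsewhere. Replicate 3 listed 287 of 585 just-below promoter regions (49.1%, 45.0 to 53.1), 66.8% of intronic and 76.1% of intergenic just-below regions. Replicate 1 listed 96.1% of the promoter regions and 94.2% of the intergenic ones, and replicate 2 listed 93.2% and 90.4%. Promoter minus intergenic listing in replicate 3 was −27.1 points (−31.6 to −22.4) in just-below regions, −20.0 points (−22.9 to −16.9) in reproducible peaks and −9.44 points (−13.2 to −5.56) in the bottom window. Hence 19.4% of the 1540 just-below regions without a candidate in replicate 3 were promoter regions, against 9.18% of the 3128 listed there, a difference of 10.2 points (8.002 to 12.4).

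This held at both ends of the just-below ranks. At ranks 5057 to 7584 the promoter share was 21.6% without and 9.75% with a candidate in replicate 3, and at ranks 7585 to 10112 it was 17.7% and 8.56%. Mean GC content at the summit was 34.0% in regions without and 33.7% in regions with a candidate in replicate 3.

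The same rank windows were then read in each replicate's own list, which gives a value per biological replicate. These regions were chosen by the replicate's own ranks, so they are a different set from the just-below regions of the pooled list. A replicate's candidates down to the lower rank limit overlapped 57.0%, 54.3% and 38.7% of the pooled just-below regions in replicates 1, 2 and 3. Those shares include the 6.49%, 5.78% and 17.3% overlapped by its top list. The values below therefore do not show how a replicate, least of all replicate 3, sees the pooled just-below regions. Summits of just-below ranks outside reproducible peaks lay at promoters in 21.6% of 3949 regions in replicate 1, 19.1% of 3969 in replicate 2 and 7.12% of 4633 in replicate 3. The strongest 5056 regions that overlapped a reproducible peak gave 25.5%, 26.0% and 20.6%, and the bottom ranks gave 11.3%, 10.5% and 7.33%. In replicates 1 and 2 the just-below ranks lay between the other sets, whereas in replicate 3 they were level with the bottom ranks.

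The mean difference in promoter share was −8.12 points ± 4.91 (SD, n = 3) from the strongest regions, lower in 3 of 3 replicates (exact 2-sided sign-flip permutation test, p = 0.25, the smallest that 3 replicates allow). From the bottom ranks it was 6.22 ± 5.62 points, higher in 2 of 3 replicates (exact permutation p = 0.5). Without replicate 3 the difference from the bottom ranks was 9.43 points. This design cannot reach a p of 0.05. With 3 replicates the sign-flip p is 0.25 whenever all differences share a sign, whatever their size or spread. The replicates also come from 1 line.

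Coding exon shares and GC content separated the own-list windows in the same direction in each replicate. Coding exons held 0.481%, 0.907% and 5.12% of just-below ranks in replicates 1 to 3, against 4.34%, 5.22% and 7.60% of bottom ranks, a mean difference of −3.55 ± 0.95 points (exact permutation p = 0.25). Mean GC content was 34.8%, 34.6% and 40.2% in just-below ranks, 31.0%, 31.3% and 31.3% in the strongest regions and 39.7%, 38.8% and 41.4% in bottom ranks. The GC difference from bottom ranks was −3.44 ± 1.93 points (exact permutation p = 0.25), with −4.90, −4.17 and −1.25 points in replicates 1 to 3.

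**Figure D5:**
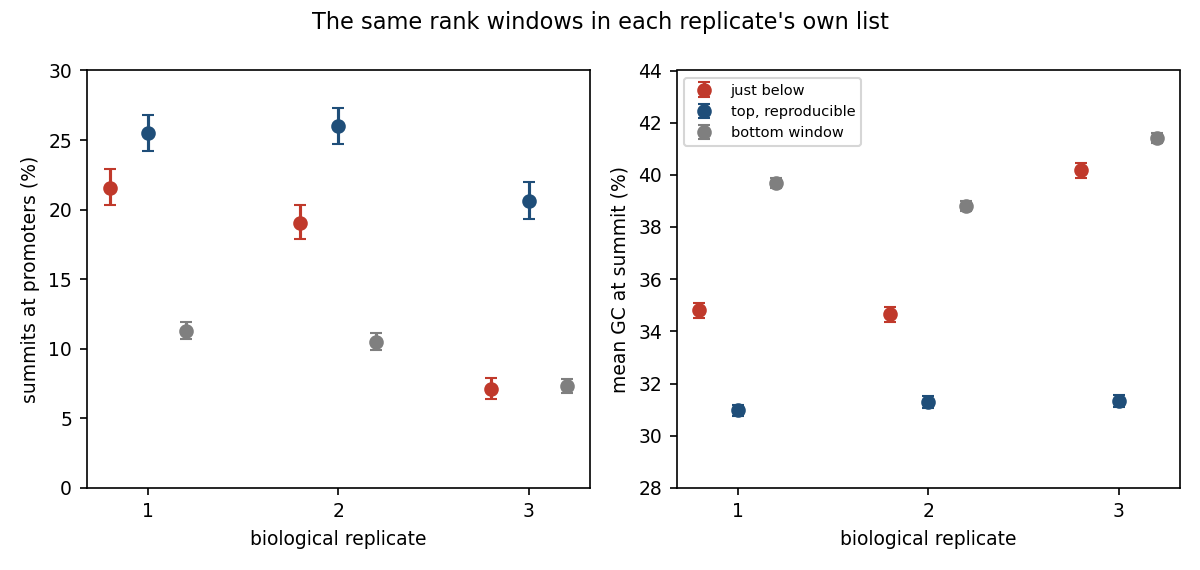
Share of summits at promoters (%, left) and mean GC content at the summit (%, right) in each biological replicate's own list, for just-below ranks, the strongest regions that overlap reproducible peaks and the bottom ranks, with 95% intervals over regions. The just-below point of replicate 3, at 7.12% and 40.2%, lies beside its bottom window, while those of replicates 1 and 2 do not. The regions were chosen by each replicate's own ranks and are a different set from the just-below regions of the pooled list.

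Just-below summits lay within 500 bp of a TSS of 607 of 13945 protein-coding genes (4.35%). Reproducible summits did so for 1311 genes (9.40%) and bottom summits for 789 (5.66%). Of the 607 genes, 86 also had a reproducible promoter summit, which was 14.2% of the just-below genes and 6.56% of the reproducible ones. Adding the just-below regions brought the genes with either kind of summit to 1832 (13.1%). Of the 37 genes from the 15 lists below that had a just-below promoter summit, 27 (73.0%, 57.02 to 84.6) had no candidate in replicate 3 at that summit, against 323 of all 607 genes (53.2%, 49.2 to 57.1).

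Hormone response and timing genes are considered first. Of 36 ecdysone response genes, 4 had a just-below promoter summit (11.1%, 4.41 to 25.3), 14 a reproducible and 1 a bottom one. Eip93F, an ecdysone-induced transcription factor of late metamorphosis, had its just-below summit 70 bp upstream of a TSS, at chr3R:21972099-21972518, with a pooled rank of 5658 and ranks 11930 and 5261 in replicates 1 and 2. crol, an ecdysone-responsive zinc finger gene, had a summit 395 bp downstream with ranks 19642 and 6962, and neither had a candidate in replicate 3. Of 11 ecdysteroid synthesis genes, 0 had a just-below summit (upper limit 25.9%), 0 a reproducible and 0 a bottom one. Of 14 circadian clock genes, 3 had a just-below (21.4%, 7.57 to 47.6), 5 a reproducible and 4 a bottom promoter summit, and the 3, including the kinase gene dco and the bZIP factor gene Pdp1, all had a reproducible summit too.

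Growth and housekeeping genes were counted in 5 lists. Of 93 cytosolic ribosomal protein genes, 10 had a just-below promoter summit (10.8%, 5.95 to 18.7), 6 a reproducible one (6.45%) and 1 a bottom one, against 4.35% of all genes just below. None of the 10 had a reproducible promoter summit, 9 of the 10 summits were upstream of the TSS and 7 had no candidate in replicate 3. Of all 607 genes with a just-below promoter summit, 85.8% had no reproducible one and 53.2% no candidate in replicate 3. Of all just-below promoter summits 76.1% lay upstream, so these counts of 10 are not particular to the list. RpS28b, a small-subunit protein gene, was ranked 5128 in the pooled list and 5331 and 4493 in replicates 1 and 2. GC content at the 10 summits ranged from 21.8% to 56.4%. Of 73 mitochondrial ribosomal protein genes, 3 had a just-below summit (4.11%), 12 a reproducible and 1 a bottom one. mRpS5 had its just-below summit 2 bp upstream of a TSS with ranks 9301, 13037 and 3086, and mRpL21 158 bp upstream with ranks 4116 and 24076 and no candidate in replicate 3.

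Among 13 glycolysis genes, the aldolase gene Ald1 alone had a just-below summit, 225 bp upstream with ranks 28384 and 8315 in replicates 1 and 2, against 5 genes with a reproducible and 1 with a bottom summit. Of 28 core cell cycle genes, 4 had a just-below (14.3%, 5.70 to 31.5), 8 a reproducible and 0 a bottom promoter summit. The 4 were the cyclin D gene CycD, its kinase gene Cdk4, the repressor gene E2f2 and rux, an inhibitor of mitotic cyclins. Cdk4 was ranked 9826 and 6403, rux 9045 and 10609, E2f2 8279 and 5485 and CycD 9359 and 10241 in replicates 1 and 2, and replicate 3 listed none of them. Of 19 heat shock and chaperone genes, 0 had a just-below (upper limit 16.8%), 5 a reproducible and 0 a bottom summit.

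Chromatin and patterning genes were counted in 3 lists, whose intervals are to be read against the 4.35% of all genes. Of 20 insulator and architectural protein genes, 3 had a just-below (15.0%, 5.24 to 36.04), 3 a reproducible and 0 a bottom summit. Nipped-B, the cohesin loader, was ranked 5441, 9874 and 5416, 564633 bp from a reproducible summit, and BEAF-32, an insulator protein gene, was ranked 9080 and 10585 in replicates 1 and 2. Of 29 Polycomb and trithorax group genes, 1 had a just-below (3.45%, 0.611 to 17.2), 8 a reproducible and 1 a bottom summit: osa, a subunit gene of the Brahma remodelling complex, with ranks 8356 and 7154 and no candidate in replicate 3. Of 22 Hox and homeotic target genes, 2 had a just-below (9.09%, 2.53 to 27.8), 1 a reproducible and 2 a bottom summit. They were bcd, the anterior morphogen gene, with ranks 4615, 12139 and 9373, and the limb gene Dll, with rank 1425 in replicate 1 and no candidate in the other two.

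Tissue genes were read in the same way against the 4.35% of all genes. Of 24 neuronal channel and synapse genes, 3 had a just-below (12.5%, 4.34 to 31.004), 2 a reproducible and 5 a bottom summit. slo, a calcium-activated potassium channel gene, was ranked 13282, 8234 and 10574, and the synaptic scaffold gene dlg1 was ranked 7883 and 8252 in replicates 1 and 2. Of 20 muscle structure genes, 0 had a just-below (upper limit 16.1%), 4 a reproducible and 3 a bottom summit. Of 122 cuticle protein genes, 2 had a just-below (1.64%, 0.451 to 5.78), 1 a reproducible (0.820%) and 12 a bottom summit (9.84%). They were Cpr97Eb, with ranks 16735, 13701 and 3676, and Cpr12A, with ranks 17516 and 8022. Of 30 autophagy and cell death genes, 1 had a just-below (3.33%, 0.591 to 16.7), 5 a reproducible and 0 a bottom summit: Atg5, with ranks 8364 and 22500 and no candidate in replicate 3.

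The 12 strongest just-below regions lay mostly away from promoters, as did just-below regions in general, of which 12.5% were promoter regions. They were nearest to MYPT-75D, CG46304, CG12075, the ARID-domain gene retn, the peroxiredoxin gene Prx1, InR, CheA75a, mamo, CG14147, CG42700, E2f1 and Dyro, with pooled scores from 108.72 to 108.47. The regions at CG46304 and mamo were promoter regions, 63 bp downstream and 423 bp upstream of a TSS. That of E2f1, the cell cycle activator gene, lay in its intron 10845 bp from the TSS and was ranked 4614, 9899 and 3395. That of InR lay in an intron of the gene at chr3R:21604894-21605313, 2985 bp from a reproducible summit. The region nearest to CG42700 lay in the 3′ UTR of Cam, the calmodulin gene.

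At the tagged locus itself, no just-below region overlapped CG4318 on the X chromosome (chrX:13153461-13154924, minus strand). The nearest one lay 7865 bp from the gene, in an intron of CG32645, at pooled rank 9392 with ranks 10313, 17677 and 16204 in the 3 replicates.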

How the data were processed

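The files hold peak lists in narrowPeak format, 1 per replicate and 1 over all replicates, and the reproducible list. The deposited signal score ranked regions within a list and was put to no other use, and the deposited −log10 q-value described them. Which aligner and peak caller made these lists is not given in the sources used here. Reads were not counted in any file, so the depth is unknown.

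Ranks, overlaps of at least 1 bp, distances and base composition were computed with Python 3.11.15, numpy 2.4.6, pandas 2.3.3, scipy 1.17.1 and statsmodels 0.14.6. All regions lay within the arms of the Release 6 assembly, and gene models came from Ensembl release 115 (BDGP6 annotation 54). A summit within 500 bp of a protein-coding TSS was classed as promoter, and otherwise by its place in a UTR, a coding or other exon, an intron or intergenic sequence. Shares have 95% Wilson intervals and differences 95% Newcombe intervals. Values from the 3 replicates' own lists were compared by exact 2-sided sign-flip permutation tests. The steps were checked on simulated regions.

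The members, the 15 gene lists (7 symbols unmatched) and the 12 motifs were chosen with earlier results of these data known, as was the naming rule. It names the genes nearest to the 12 strongest just-below regions, to any in the top lists of all 3 replicates, to the 5 farthest from a reproducible summit and to the 5 strongest absent from replicate 3 alone, up to 2 genes per list, CG4318, and the regions at the rank limits. Mer, cib, B52, CG11537, CycD, E2f2 and the genes of the arm ends were named after their values were seen. Sequences from arm 2R are not shown. Alternatives covered overlap, rank limits, TSS and GC windows, the dm3 lists and the omission of each replicate.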

Additional observations from a re-analysis of the deposited data

How the results depend on the processing

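Just-below regions numbered 4668, and 2283 or 2385 when the ranks were restricted to 5057 to 7584 or 7585 to 10112; the other criteria and the dm3 lists gave 4274 to 4795. The promoter share of 12.5% was 6.41% with a TSS window of 250 bp and 20.1% with 1000 bp. With 2 restrictions added after the data had been seen, it was 9.49% for regions listed in all 3 replicates and 19.4% for those with no candidate in replicate 3. The genes numbered 317 with 250 bp, 949 with 1000 bp and 250 with regions listed in all 3 replicates, against 607. The coding exon share was 0.750% by position alone, and its difference was −2.47 points when ranks 10113 to 20000 replaced the bottom window. Mean listing per replicate was 50.01% for each replicate's 10112 strongest candidates and 9.85% for its 5056 strongest. The median distance to a reproducible summit was 5801 bp edge to edge, 7435 bp without regions within 500 bp of a reproducible peak and 6662 bp for regions listed in all 3 replicates. The cause of these shifts was not tested.

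Leaving out 1 replicate at a time, the mean listing was between 79.4% and 93.2%. The own-list promoter difference was between −10.2 and −5.42 points from the strongest regions and between 4.19 and 9.43 points from the bottom ranks. The coding exon difference was between 0.647 and 2.99 points from the strongest regions and between −4.08 and −3.17 points from the bottom ranks. From the strongest regions it fell from 2.14 points with all 3 replicates to 0.647 points without replicate 3. The GC difference was between 3.59 and 6.34 points from the strongest regions and between −4.53 and −2.71 points from the bottom ranks. No p could reach 0.05, and no value changed sign.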

Other observations

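Further features of the just-below regions are given as values. Summit windows with at least 50% of their bases soft-masked in the reference numbered 542 (11.6%) in just-below regions, 652 (12.9%) in reproducible peaks and 893 (9.06%) in the bottom window. Summits within 500 bp of the start of a non-coding gene, and not of a protein-coding one, numbered 120 (2.57%) in just-below regions, 151 (2.99%) in reproducible peaks and 256 (2.60%) in the bottom window. Of 67 just-below regions in the top lists of at least 2 replicates, 22 (32.8%) were promoter regions, against 12.5% of all just-below regions. By pair, promoter regions were 7 of 17 for replicates 1 and 2, 2 of 16 for replicates 1 and 3 and 13 of 36 for replicates 2 and 3. Of the 67 regions, 19 had no candidate at all in 1 of the replicates.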
